A study of Homo sapiens with 8 samples.

Results

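RNA levels of 10 genes of the S100 family were followed in cisplatin-resistant ovarian carcinoma cells after knockdown of the long noncoding RNA UCA1. The genes are S100A2, S100A3, S100A4, S100A5, S100A6, S100A10, S100A11, S100A13, S100A14 and S100A16, and they were taken as those of the 22439 RefSeq symbols on the array whose accession carries one of these names, which gave 11 of 58201 probes. They were selected on the measured difference between siUCA1 and sictrl, in which the S100A3 probe was known to fall and the rest serve as its relatives, so the difference between the conditions is given for them as a description, with no p-value, and counts of members past a threshold describe the same contrast.

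The cells were OAW42-R, a derivative of the ovarian carcinoma line OAW42 that is resistant to cisplatin, and neither condition received the drug. One set of 4 cultures was transfected with sictrl, a non-targeting control pool, and another set of 4 with siUCA1, a mix of the UCA1 siRNAs numbered 2 and 4, in both cases at 20 nM. The labels place the extraction of RNA at 24 h after transfection, whereas the methods of the study name a later time, and this was not resolved here. Each RNA was labeled in one color and hybridized to 1 array, and arrays are named A1, M2, A2 and A3 within each condition after the labels, the methods speaking of independent experiments. All 8 cultures come from a single resistant line transfected with one siRNA mix.

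S100 proteins are small calcium-binding proteins of the EF-hand type that mostly work as dimers. When calcium binds, they open a surface for partner proteins such as annexins, nonmuscle myosin or p53, and several of them are also secreted and act on receptors such as RAGE. Most of their genes stand side by side on the long arm of chromosome 1, and many are altered in carcinomas. S100A3 itself is a cysteine-rich, zinc-binding member best known from the cuticle of the hair.

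In the RefSeq annotation of GRCh38.p14, S100A6, S100A5, S100A4, S100A3, S100A2, S100A16, S100A14, S100A13 and S100A1 follow each other in this order, while S100A10 and S100A11 lie outside the window of 500 kb around S100A3. All 10 genes studied are transcribed from the minus strand. S100A4 overlaps S100A5 on the same strand, S100A13 overlaps S100A1 and CHTOP on the opposite strand, and the lncRNA LOC101928034 runs across S100A3 and S100A4 on the opposite strand.

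The sequences just before the start sites of S100A3 and of the genes on either side are shown because these immediate neighbors had very different values below. They are the RefSeq promoters of GRCh38.p14, 250 bases before the start, read 5′ to 3′ on the minus strand. Capitals mark matches on either strand to TATAAA, to TGANTCA or to GGGCGG, the letters by which a TATA box, an AP-1 site and a GC box are usually recognized. S100A4 lies at chr1:153545807-153546056, S100A3 at chr1:153549259-153549508, and S100A2 has 2 listed starts, at chr1:153563888-153564137 and chr1:153565845-153566094.
S100A4: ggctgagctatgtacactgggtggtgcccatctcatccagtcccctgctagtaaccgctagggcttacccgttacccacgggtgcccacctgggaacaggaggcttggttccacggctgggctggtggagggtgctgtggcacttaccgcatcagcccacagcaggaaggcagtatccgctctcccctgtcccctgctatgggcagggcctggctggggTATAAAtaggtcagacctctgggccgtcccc
S100A3: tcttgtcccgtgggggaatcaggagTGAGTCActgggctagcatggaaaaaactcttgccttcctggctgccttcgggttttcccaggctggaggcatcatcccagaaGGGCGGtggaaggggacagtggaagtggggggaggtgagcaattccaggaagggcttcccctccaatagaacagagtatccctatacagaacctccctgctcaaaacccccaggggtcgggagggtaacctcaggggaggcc
S100A2, start nearer to S100A3: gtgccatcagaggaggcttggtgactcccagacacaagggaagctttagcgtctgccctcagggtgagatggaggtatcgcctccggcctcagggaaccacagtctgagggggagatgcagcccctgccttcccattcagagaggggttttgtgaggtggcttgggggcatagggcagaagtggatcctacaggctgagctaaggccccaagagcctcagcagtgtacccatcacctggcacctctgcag
S100A2, farther start: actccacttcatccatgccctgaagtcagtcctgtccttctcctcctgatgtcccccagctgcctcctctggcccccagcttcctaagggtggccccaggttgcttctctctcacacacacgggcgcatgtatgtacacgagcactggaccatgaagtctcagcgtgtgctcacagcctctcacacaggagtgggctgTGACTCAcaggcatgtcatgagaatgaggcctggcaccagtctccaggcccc
The S100A3 sequence holds TGANTCA once, 225 bases before the start, and GGGCGG once, 142 bases before it. TATAAA was found 31 bases before the start of S100A4, and TGANTCA 52 bases before the farther start of S100A2, whereas the nearer start of S100A2 had no match. Of the 35116 promoters of this length in the table, 10.7% hold TATAAA, 6.57% TGANTCA and 42.6% GGGCGG, and a match of letters is not a proven site. The other members had no TGANTCA except at 1 of the 2 starts of S100A5, and S100A6 had GGGCGG at 3 places. GGGCGG was also found before S100A10 and S100A11 and at 1 start each of S100A13 and S100A16. Another start of S100A13 had TATAAA, 29 bases before it.

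UCA1 checked the labels. Its brighter probe read 8.35, 8.37, 8.60 and 7.48 on sictrl A1, M2, A2 and A3, in log2 units relative to the 75th percentile of each array, a scale used for every level below, and 3.68, 2.59, 3.02 and 3.34 on the siUCA1 arrays of the same names. The log2 fold change, siUCA1 minus sictrl, was -5.04 for UCA1, with no overlap. All 8 arrays lay on 1 slide, and whole arrays correlated at 0.976 to 0.997. The pair formed by sictrl A3 and siUCA1 A1 differed from the rest, as the trend over the array surface that the scanner software had fitted amounted to 0.321 and 0.287 on them against 0.0737 to 0.0943 on the other 6 (root mean square), and the fold changes of the members are given with and without this pair. Both arrays of the pair lay in column 2 of the slide, and no other array did. Of 9 epithelial and ovarian carcinoma markers, 7 were well above background on all 8 arrays, and MUC16, which encodes CA125, and WT1 were on none. None of the 7 fibroblast markers passed the detection filter, and COL1A1 and THY1 alone were detected on any array. Of the leukocyte and endothelial markers, CD14 and VWF were detected on all 8 arrays and the leukocyte marker PTPRC on 2 siUCA1 arrays and the endothelial marker PECAM1 on 1, and of 6 squamous markers KRT10 alone was detected. By limma with adjustment over all genes tested, CDH1 fell by 0.81 on the log2 scale in siUCA1 (adjusted p = 0.0149) and CD14 rose by 0.70 (adjusted p = 0.0478), both named after their values were seen. They were 1 of 7 epithelial markers tested, whose median log2 fold change was 0.18 with EPCAM at 0.50 and KRT7 at 0.56, and 1 of 2 leukocyte and endothelial markers tested, the other being VWF at -0.08, beside 5.85% of all genes called lower and 5.72% higher. The call of CD14 was lost without that pair (adjusted p = 0.0795), under median scaling (adjusted p = 0.211), with normexp (adjusted p = 0.124), with the percentile over detected probes (adjusted p = 0.0637), with slide row as a block (adjusted p = 0.0628), without a detection filter (adjusted p = 0.360), and on leaving out any 1 array but siUCA1 A3, at adjusted p between 0.0616 and 0.125. The part of other cells in the S100 values was not tested.

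S100A3 was strongly downregulated. Its probe read -0.15, 1.20, 1.39 and 1.16 on sictrl A1, M2, A2 and A3, and -1.87, -1.23, -1.29 and -1.24 on the siUCA1 arrays in the same order. The highest siUCA1 value lay 1.09 below the lowest sictrl value, and sictrl A1 was the low array of its condition. The sictrl mean was 0.90 ± 0.71 and the siUCA1 mean -1.41 ± 0.31 (SD, n = 4 each). Their difference, the log2 fold change, was -2.31 with a standard error of 0.33, or 20.2% of the sictrl level. In a culture, fewer cells with a transcript and less transcript per cell cannot be told apart.

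The spots behind these values were dim but measurable. The processed intensity of S100A3 was 122, 299, 317 and 240 on the sictrl arrays and 29.1, 50.3, 45.6 and 50.2 on the siUCA1 arrays, on a linear scale, and every one of these spots was well above background. Between arrays of the same name the difference was -1.73 for A1, -2.44 for M2, -2.68 for A2 and -2.39 for A3. As the groups did not overlap, these differences had to be negative however the arrays are matched. Both A1 arrays were the lowest of their condition. Leaving out any 1 array gave log2 fold changes between -2.66, without sictrl A1, and -2.15, without sictrl A2, and leaving out sictrl A3 and siUCA1 A1 together gave -2.07. With another background correction (normexp) the fall was -1.49. Wherever it is named here, this setting also used the median spot signal, added an offset of 50 and applied quantile normalization. An offset of that size narrows log2 differences between dim spots by itself, so the value does not isolate the background correction.

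Of the 15454 genes tested, 8 fell more than S100A3. In the order of the 1555 called genes with a symbol, HOXC4 at -2.38 and RNF157-AS1 at -2.36 came just before S100A3, and COPB2-DT at -2.29 and OCRL at -2.22 just after it. These are values of the contrast that chose S100A3 and carry no further weight.

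**Figure D1:**
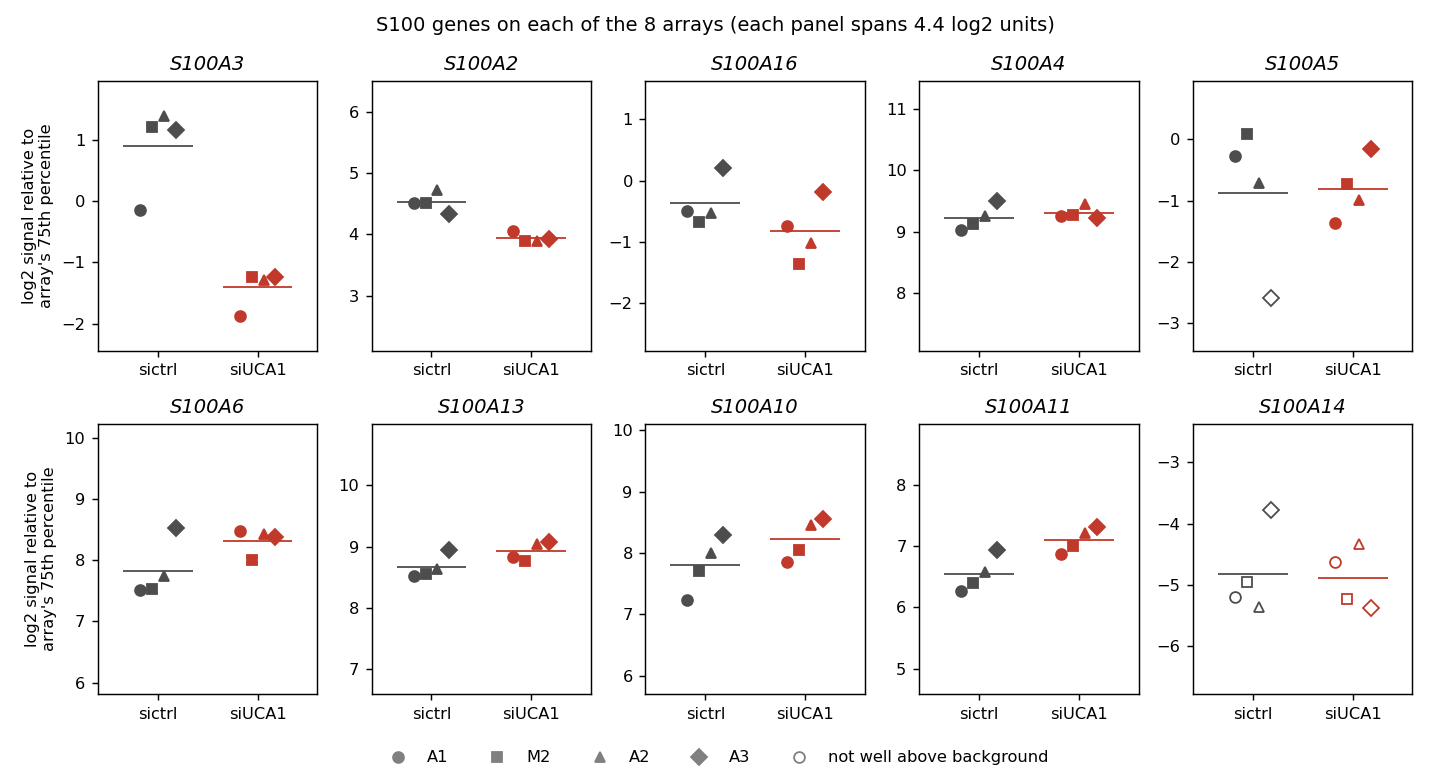
Level of each S100 gene on each of the 8 arrays, as log2 signal relative to the array's 75th percentile, with the shape of a point giving the replicate name, a line the mean of 4 arrays and an open point a spot not well above background; every panel spans the same number of log2 units around its own center. S100A3 and S100A2 show no overlap between sictrl and siUCA1, and S100A14 has open points only.

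Among the direct neighbors, S100A2 fell as well and S100A4 did not move beyond its spread. S100A2 encodes an epithelial S100 protein that binds p53, and it read 4.52, 4.52, 4.72 and 4.34 on sictrl A1, M2, A2 and A3 and 4.06, 3.89, 3.88 and 3.92 on the siUCA1 arrays. Its 2 groups lay apart by 0.28. The sictrl mean was 4.52 ± 0.16 and the siUCA1 mean 3.94 ± 0.08 (SD, n = 4 each). The log2 fold change of -0.58 (SE 0.11) leaves 66.7% of the sictrl level against 20.2% for S100A3. Without sictrl A3 and siUCA1 A1 it was -0.69.

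S100A4, also called metastasin, binds the heavy chain of nonmuscle myosin and is linked to cell motility. It read 9.02, 9.13, 9.25 and 9.49 on the sictrl arrays and 9.25, 9.28, 9.45 and 9.22 on the siUCA1 arrays, in the order A1, M2, A2, A3. The groups overlapped almost entirely, with means of 9.22 ± 0.20 and 9.30 ± 0.10 (SD, n = 4 each) and a log2 fold change of 0.08 that turned to -0.09 under quantile normalization, to -0.05 with normexp and to -0.02 under median scaling. S100A4 is the gene just downstream of S100A3 on the same strand, and its fold change lay between 0.01 and 0.17 with 1 array left out and was 0.18 without the pair.

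S100A5, which is best known from olfactory neurons and overlaps S100A4 in the annotation, was dim and scattered. It read -0.27, 0.09, -0.71 and -2.59 on sictrl A1, M2, A2 and A3, the last of these not well above background, and -1.36, -0.72, -0.98 and -0.16 on the siUCA1 arrays. It passed the filter through the siUCA1 arrays. The log2 fold change of 0.06 became -0.51 without sictrl A3 and -0.33 without the pair, and 6 of 20 alternatives gave a negative value, so that no direction can be given for it.

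S100A16, a broadly expressed member, stands next to S100A2 on its other side. It read -0.49, -0.67, -0.52 and 0.21 on the sictrl arrays and -0.74, -1.36, -1.02 and -0.18 on the siUCA1 arrays, again as A1, M2, A2, A3. Each siUCA1 array was below the sictrl array of its name, yet the groups overlapped, with a log2 fold change of -0.46 (SE 0.27). It was -0.29 without the pair, -0.26 without sictrl A3 alone, -0.28 without siUCA1 M2 and -0.26 with normexp. In both conditions A3 was the highest array. S100A14, the next gene in the row, was not well above background on any of the 8 arrays, and no fold is given for it.

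The other members had higher means in siUCA1. S100A6, or calcyclin, read 7.51, 7.53, 7.74 and 8.52 on sictrl A1, M2, A2 and A3 and 8.48, 8.01, 8.42 and 8.38 on the siUCA1 arrays. A single sictrl array, A3, was not below the siUCA1 arrays but above all 4 of them, and it is one of the pair with the large surface trend. The log2 fold change was 0.49 with all arrays (7.83 ± 0.48 against 8.32 ± 0.21, SD, n = 4 each) and 0.67 without the pair (7.59 ± 0.13 against 8.27 ± 0.23, SD, n = 3 each), where the groups no longer overlapped. With normexp and all arrays it was 0.32.

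S100A13, which takes part in the release of FGF1 from cells, read 8.52, 8.56, 8.64 and 8.95 on the sictrl arrays and 8.83, 8.78, 9.04 and 9.08 on the siUCA1 arrays, in the order A1, M2, A2, A3. Here too sictrl A3 was the array that overlapped, and the log2 fold change of 0.26 (SE 0.13) became 0.39 without the pair. It was 0.11 under quantile normalization, 0.14 with normexp and 0.17 under median scaling. S100A13 shares part of its locus with S100A1 on the opposite strand, and its probe is counted here by accession alone.

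S100A10 does not need calcium and forms a complex with annexin A2 at membranes. It read 7.24, 7.71, 7.99 and 8.29 on sictrl A1, M2, A2 and A3 and 7.85, 8.05, 8.46 and 8.56 on the siUCA1 arrays. Every siUCA1 array exceeded the sictrl array of its name, and in both conditions A1 was the lowest array and A3 the highest. The groups overlapped with all arrays, at a log2 fold change of 0.42 (SE 0.24), and not without the pair, at 0.71. Without sictrl A1 the log2 fold change was 0.23.

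S100A11, a partner of annexin A1, was read by 2 probes. The brighter one gave 6.27, 6.40, 6.57 and 6.94 on the sictrl arrays and 6.86, 7.00, 7.21 and 7.30 on the siUCA1 arrays, as A1, M2, A2, A3, with a log2 fold change of 0.55. The other gave 5.53, 5.65, 5.82 and 5.10 on the sictrl arrays and 5.05, 6.30, 6.57 and 6.51 on the siUCA1 arrays, with a log2 fold change of 0.58. Both probes were higher in siUCA1 on average, but the second fell by 0.48 between the A1 arrays, and its lowest value in each condition came from sictrl A3 and siUCA1 A1, the pair with the large surface trend. Without that pair the differences were 0.76 and 0.79 and neither probe overlapped between the conditions.

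**Figure D2:**
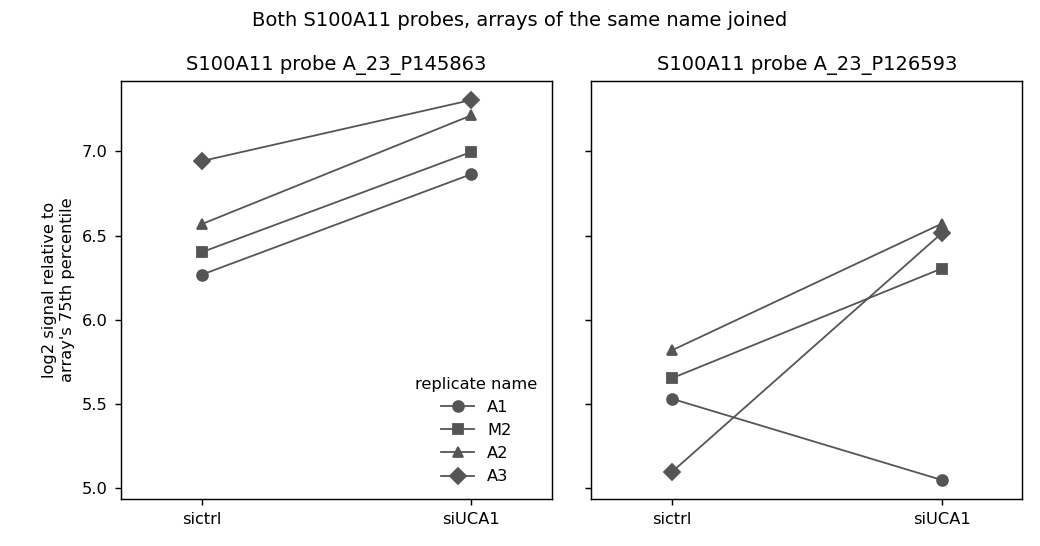
Levels of both S100A11 probes, as log2 signal relative to the array's 75th percentile, in sictrl and siUCA1, with lines joining arrays of the same replicate name. All 4 lines go up for the first probe, and 3 of 4 for the second, whose low points are sictrl A3 and siUCA1 A1.

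Counted over the members, 9 of 10 passed the detection filter, of which 8 were detected on all 8 arrays, and 3 were lower and 6 higher by sign (5 lower and 4 higher under median scaling and with normexp), a count that includes S100A4 and S100A5, whose sign turned, with a median log2 fold change of 0.08 against 0.03 over all genes tested. At an adjusted p under 0.05 (limma), 2 members were called, S100A2 and S100A3, both lower, beside 11.6% of all genes tested in either direction, 5.85% lower and 5.72% higher. The same 2 were the members without overlap between the 4 arrays of each condition, beside 9.67% of all genes not overlapping and lower and 11.2% not overlapping and higher. Without sictrl A3 and siUCA1 A1, 2 members were called lower and 3 higher, S100A6, S100A11 and S100A13, beside 11.4% and 12.9% of all genes. Then 2 members were lower and 4 higher without overlap between 3 arrays against 3, beside 20.2% and 25.7%. With all 8 arrays and replicate name as a block, 3 members were called lower and 2 higher, beside 1727 of 15454 genes in either direction. These were S100A2, S100A3 and S100A16, and S100A10 and S100A11. As the contrast chose the members, nothing is read from these counts.

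**Figure D3:**
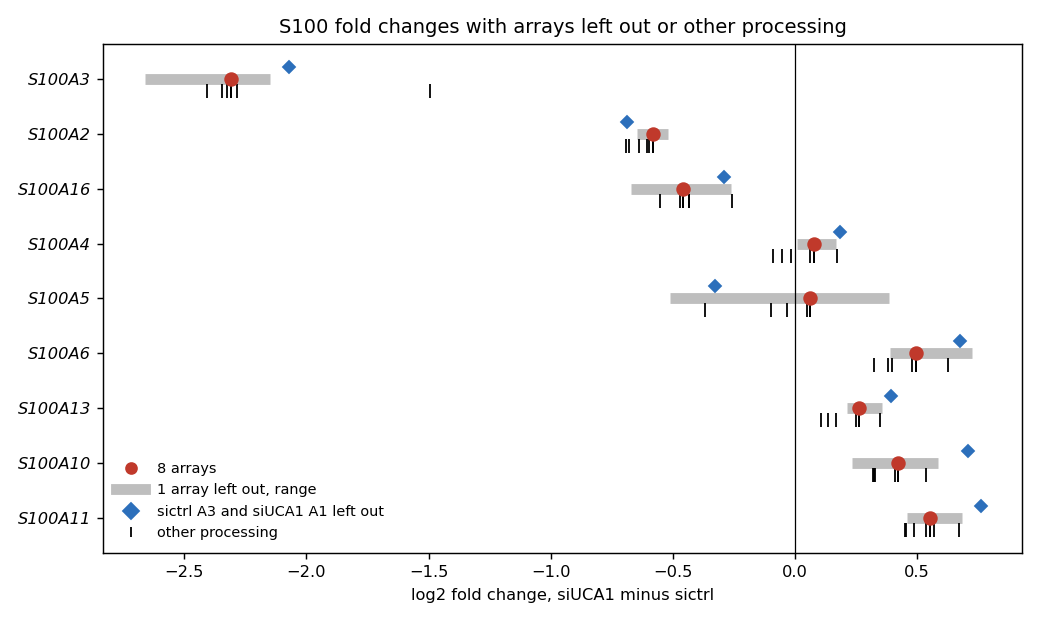
Log2 fold change (siUCA1 minus sictrl) of the 9 S100 genes that passed the detection filter, with all 8 arrays (red points), over fits with 1 array left out (gray bars), without sictrl A3 and siUCA1 A1 (blue diamonds) and under other processing (black ticks). S100A3 is at -1.49 or lower in every case, S100A4 and S100A5 cross 0, and S100A6, S100A13, S100A10 and S100A11 lie farther to the right without the pair.

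Over the 8 arrays, the level of S100A3 correlated with that of S100A2 at r = 0.86 and of S100A16 at 0.48. The other members were near or below 0, with S100A4 at -0.05, S100A5 at -0.08, S100A10 at -0.23, S100A13 at -0.49, S100A6 at -0.50 and S100A11 at -0.58. The genes most like S100A3 over these arrays were RFX5, CYB5R1, C11orf71, MXD3 and RWDD2B, each at r = 0.99, whose log2 fold changes ran from -0.69 to -0.52. The 8 points share 2 conditions, so these coefficients largely restate the difference between them.

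In gene order, S100A3 at -2.31 and S100A2 at -0.58 on the log2 scale lay between S100A4 at 0.08 and S100A16 at -0.46. Within 500 kb of S100A3 the RefSeq table lists 50 genes that are no S100 genes, of which 28 were on the array and 14 passed the detection filter. Of these 14, limma called 2 higher in siUCA1 and 0 lower, beside 5.72% of all genes tested called higher and 5.85% lower, and their median log2 fold change was 0.11 against 0.03 over all genes tested. NPR1, the receptor of atrial natriuretic peptide, was higher by 1.29 (SE 0.25, adjusted p = 0.0145), which became an adjusted p of 0.0508 without siUCA1 A2 and a difference of 0.63 with normexp, and CRTC2, a coactivator of CREB, was higher by 0.55 (SE 0.09, adjusted p = 0.0084), with an adjusted p of 0.265 under median scaling and 0.0564 with normexp. The lncRNA LOC101928034, which overlaps S100A3, was detected on 3 sictrl and 2 siUCA1 arrays and was not tested, at -2.45 ± 0.54 against -2.43 ± 0.42 (SD, n = 4 each).

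**Figure D4:**
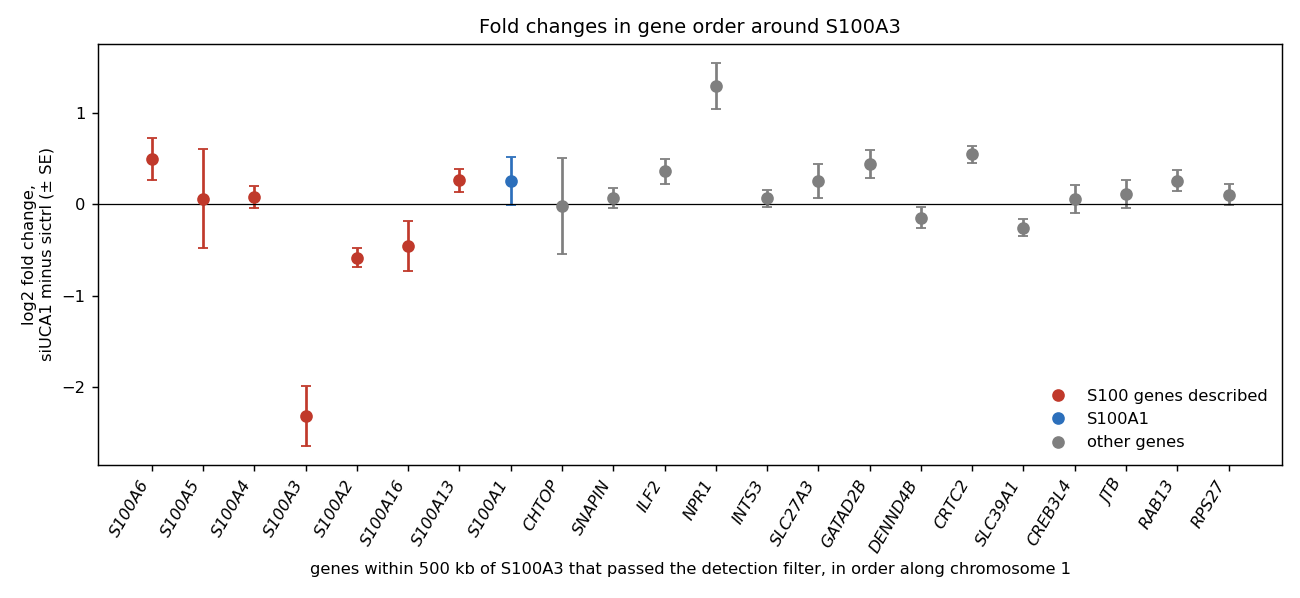
Log2 fold change (siUCA1 minus sictrl, bars ± SE) of every gene within 500 kb of S100A3 that passed the detection filter, in order along chromosome 1 and not to scale in distance. S100A3 lies at -2.31, S100A2 at -0.58 and S100A4 at 0.08, and NPR1 is the highest point at 1.29.

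The remaining S100 genes were mostly not detected on these arrays. Of 11 further S100 genes, 10 were on the array, and S100A7, S100A7A, S100A8, S100A9, S100A12, S100B, S100G and S100Z were not well above background on any array. S100A1, which lies beside S100A13, was the one tested, at 2.40 ± 0.52 against 2.65 ± 0.31 (SD, n = 4 each). Its log2 fold change was 0.25 (SE 0.26, adjusted p = 0.585 by limma), and its second probe gave 0.27. Without sictrl A3 and siUCA1 A1 it was 0.48, and leaving out 1 array gave 0.09 (without sictrl M2), 0.10 (without siUCA1 A3), 0.16 (without sictrl A2) and 0.48 (without sictrl A3) among others. The fused-type S100 genes, large epidermal proteins such as filaggrin that carry an S100 domain, were detected on no array in 7 of 7 cases.

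S100P, which lies outside the cluster, was detected on 3 sictrl arrays and 1 siUCA1 array and so was not tested. It read -1.19, -3.03, -2.55 and 0.23 on sictrl A1, M2, A2 and A3 and -2.10, -3.47, -3.06 and -0.70 on the siUCA1 arrays. A3 was the highest array in both conditions. The 4 spots of sictrl M2 and of siUCA1 A1, M2 and A2 were not well above background, so no order or difference is read from them.

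Among 18 genes whose proteins bind, modify or receive S100 proteins, 12 passed the filter, 2 were called higher and 0 lower, beside 5.72% of all genes tested called higher and 5.85% lower, and the median log2 fold change was 0.22 against 0.03 over all genes tested. PLAT, the tissue plasminogen activator, whose binding to cells involves the S100A10 and annexin A2 complex, was higher by 0.67 (SE 0.10, adjusted p = 0.0053). Under median scaling the difference was 0.57 and the call was lost (adjusted p = 0.198), while normexp gave 0.44. S100PBP, named for its binding of S100P, was higher by 0.85 (SE 0.18, adjusted p = 0.0204). A second S100PBP probe differed by 0.11 (adjusted p = 0.654), and with the mean of both probes the difference was 0.48 (adjusted p = 0.0776). The call of the first was also lost under median scaling (adjusted p = 0.162), with normexp (adjusted p = 0.188) and without sictrl A2, siUCA1 M2, siUCA1 A2 or siUCA1 A3, where adjusted p lay between 0.0511 and 0.0700.

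Apart from PLAT, no tested direct partner of the members was called in the unweighted fit to the brightest probe of each gene on all 8 arrays. FGF1, IL1A and TRPV6 did not pass the detection filter and were not tested. ANXA2, the partner of S100A10, was at 0.20 (SE 0.14), MYH9, the myosin bound by S100A4, at 0.08 (SE 0.13), and CACYBP, which binds S100A6, at -0.44 (SE 0.17). ANXA2 was called with array weights and without sictrl A3 and siUCA1 A1, and CACYBP with array weights and with the mean of its kept probes. BSG, a membrane receptor for secreted S100 proteins, was at 0.62 (adjusted p = 0.0705 by limma), and it was called without sictrl A3, without that array and siUCA1 A1, with normexp and with array weights. Of the receptors and modifying enzymes, TLR4 and PADI3, the enzyme that citrullinates S100A3 in hair, were detected on no array, and AGER, which encodes RAGE, on 1 array of each condition.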

How the data were processed

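RNA of OAW42-R cells after sictrl or siUCA1 transfection was read on 8 one-color arrays, 4 per condition, and conditions and replicate names were taken from the labels. The authors deposited the Agilent Feature Extraction (version 10.7.3.1) output, with spot intensity on a linear scale, background-subtracted and corrected for a surface trend but not normalized between arrays. The methods name limma with Benjamini-Hochberg adjustment and no normalization. The array design refers to hg19, whereas accessions were named through RefSeq tables of GRCh38.p14, and no converted coordinate was used.

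From the deposited intensity, log2 values were taken and the 75th percentile of non-control spots was subtracted per array. Spots marked as outliers were left out. A probe was kept when well above background on all 4 arrays of a condition, and where several probes of a gene were kept the one with the highest mean was used. That gave 15454 genes, fitted with limma 3.58.1 in R 4.3.3 (package data.table, version 1.17.8) and adjusted over all of them, of which 1788 were called at an adjusted p under 0.05. The model was checked on simulated data. Figures were drawn with matplotlib 3.10.9 in Python 3.11.15.

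The members and all gene lists were chosen with earlier results of these data known. In each further list, up to 6 called genes with the largest change were named, with the 5 genes most correlated with S100A3. A comparison of the protein sequences was planned and not made, as no protein sequence was used here. The number of arrays, and background for dim probes, limits the precision. Normalization, background correction, filters, probe choice, blocks, weights and left-out arrays were varied.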

Additional observations from a re-analysis of the deposited data

Results flagged for a closer look

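Within each condition, the array farthest from the others was compared with the range of the 4 arrays for each of the 10 S100 probes kept, which read 9 genes and not S100A14, and 2 of the 20 sets held an array past Dixon's 95% critical value of 0.829, where chance passes about 5% of sets. Both concerned S100A3 and both were A1 arrays. On sictrl A1, S100A3 read -0.15 against 1.16 to 1.39 on the other sictrl arrays, with a gap of 0.851 of the range. On siUCA1 A1 it read -1.87 against -1.29 to -1.23, with a gap of 0.906 of the range. The log2 fold change of S100A3 was -2.66 without the first of these arrays and -2.16 without the second. siUCA1 A1 is one of the pair with the large surface trend and sictrl A1, with a trend of 0.0925, is not, and the part of the trend in these values was not tested.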

How the results depend on the processing

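The log2 fold change of S100A3 was -2.31 by construction under alternatives that could not move it, since its single probe was detected on all 8 arrays without outlier spots and blocks are balanced, lay between -2.41 and -2.07 under those that changed scaling, weights or the pair of arrays, and moved to -1.49 with normexp. The number of S100 genes called (2) became 1 under median scaling (S100A3) and with normexp (S100A3), and 0 without a detection filter, where 47753 genes shared the adjustment. It became 3 with the percentile over detected probes, which added S100A11, 5 with array weights and 5 without sictrl A3 and siUCA1 A1. With 1 array left out it ranged from 2 to 4, 4 being without sictrl A3. The number of genes called (1788) became 535 under median scaling, 424 with normexp, 76 without a detection filter, 4805 with array weights, 3878 without both arrays and 760 (without sictrl A2) to 2290 (without siUCA1 A1) with 1 array left out, and the share called higher went from 49.4% to 21.3% under median scaling. Partners and receptors called (2) became 0 under median scaling, 0 without a filter, 8 with array weights, 6 without both arrays and 1 to 4 with 1 array left out. Cluster neighbors called (2) became 1 under median scaling, 1 with normexp, 0 without a filter, 7 with array weights, 6 without both arrays and 1 to 4 with 1 array left out. Marker genes called (2) became 1 under median scaling, 1 with the percentile over detected probes, 1 with normexp, 0 without a filter, 4 with array weights, 1 with slide row as a block and 1 to 2 with 1 array left out. No called direction turned, and the causes were not tested.

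Same-named arrays correlated in their deviations at 0.038 to 0.278, A1 lowest, and arrays of different names at -0.311 to 0.205. As not every array correlated best with its own name, pairing was not assumed. It was not excluded either, since the names recur in both conditions and the methods speak of independent experiments. With replicate name as a block, 1727 genes were called and 5 S100 genes, namely S100A2, S100A3, S100A10, S100A11 and S100A16. Spots not well above background limited S100A5, S100A14 and S100P, and the dim S100A3 and S100A16 had smaller differences with normexp, at -1.49 and -0.26.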

Other observations

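The array also carried 5 probes named after lncRNAs of S100 loci, and 0 of them were well above background on any of the 8 arrays.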
